A study of Rattus norvegicus with 3 samples.

Results

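A set of 10 genes of astrocytes, the glial cells that enwrap synapses and blood vessels, were followed across 3 expression arrays of rat brainstem. They were chosen by name, as genes of astrocyte structure, water transport and glutamate handling, with earlier results of these data known. The shares of all genes set beside their counts are therefore a description and not a test. Each gene was read from the brightest of its probe sets, a probe set being the group of short probes that reports 1 transcript. All 10 were found among 14217 genes with a probe set named for 1 gene, and all 10 had a mean log2 signal at or above 7.44, the median of the probe sets, which 9241 genes reached. This floor marks the brighter part of the array, where values are less erratic.

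The study placed 1 array on each of 3 groups of rats, labelled Sham, TBI (traumatic brain injury) and Hand Acu (hand acupuncture), all at 1 h after modelling. Each array is read as 1 pool of brainstem tissue mixed from 5 animals, taken as whole tissue with all its cell types, so that fewer astrocytes and less RNA in each astrocyte cannot be told apart. The damaged tissue of the model is cortex, which is not analysed here. Strain, sex and age, how the needles were placed, and whether the Hand Acu animals were also injured are not given in the sources used here. With 1 array in each group no test is possible, and the differences carry no error estimate. As a yardstick, each is set beside the scatter of other genes of like brightness between the same 2 arrays, and the small number of arrays limits the precision.

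Astrocytes are held in shape by intermediate filaments built of the protein of Gfap, and their endfeet on vessels carry the water channel encoded by Aqp4. They clear glutamate from synapses through the transporters encoded by Slc1a2 and Slc1a3, and convert it to glutamine with the enzyme encoded by Glul. Connexins encoded by Gja1 and Gjb6 join astrocytes into a network through gap junctions. A rise of the Gfap protein over days is the classical mark of reactive astrocytes after brain injury.

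The 3 members that were at least 1.2-fold apart in a comparison, Gfap, Gjb6 and Fgfr3, are shown here by the 250 bases before their annotated start, from RefSeq's table of build GRCr8, in which all 10 members were matched. The windows are chr10:88361662-88361911 for Gfap, chr15:35410139-35410388 for Gjb6, whose start farthest upstream was taken of 2 in the table, and chr14:81227210-81227459 for Fgfr3, all on the minus strand and written 5′ to 3′. Capitals mark matches on either strand to 5 motifs that were searched: the GC box GGGCGG, the CCAAT box CCAAT, the TATA box TATAAA, the STAT site TTCNNNGAA and the AP-1 site TGANTCA.
Gfap: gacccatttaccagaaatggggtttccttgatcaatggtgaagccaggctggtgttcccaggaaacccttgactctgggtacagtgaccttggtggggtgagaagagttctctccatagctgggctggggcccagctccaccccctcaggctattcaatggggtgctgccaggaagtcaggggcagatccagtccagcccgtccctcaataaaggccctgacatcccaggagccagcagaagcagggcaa
Gjb6: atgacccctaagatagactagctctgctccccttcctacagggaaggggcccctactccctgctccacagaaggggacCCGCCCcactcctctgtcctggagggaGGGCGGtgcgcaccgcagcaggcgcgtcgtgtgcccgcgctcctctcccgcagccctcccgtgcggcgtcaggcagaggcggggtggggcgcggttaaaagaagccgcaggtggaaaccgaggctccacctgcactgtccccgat
Fgfr3: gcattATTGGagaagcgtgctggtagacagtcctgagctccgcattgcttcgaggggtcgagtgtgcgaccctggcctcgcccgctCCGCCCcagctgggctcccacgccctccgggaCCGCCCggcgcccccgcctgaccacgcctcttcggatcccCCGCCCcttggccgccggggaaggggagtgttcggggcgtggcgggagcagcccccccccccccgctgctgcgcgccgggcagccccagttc

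The Fgfr3 window held 3 GC boxes and 1 CCAAT box, the Gjb6 window 2 GC boxes, and the Gfap window no match to any of the 5. Among all 33469 windows of the table, 30.5% held a GC box, 34.0% a CCAAT box, 12.9% the TATA motif, 7.67% the STAT motif and 6.34% the AP-1 motif. The 10 members had 16 windows, of which 7 held a GC box and 6 a CCAAT box. By gene, over all starts, 5 had a window with a GC box (Aldh1l1, Aqp4, Fgfr3, Gjb6 and Glul) and 5 had one with a CCAAT box (Aldh1l1, Aqp4, Fgfr3, Glul and S100b). Gja1 alone had an AP-1 motif, and no member had the TATA or STAT letters in these windows. GC content was 74.4% before Fgfr3, 68.0% in the printed window of Gjb6 and 57.6% before Gfap, against a median of 51.2% over all windows. No motif of the 5 was common to all 3 genes. A match is a run of letters and not a known binding site, and a missing one says only that those letters are not in this window.

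Most of the 10 genes were highest on the TBI array. Of the 10 members, 7 had their highest value there, against 33.4% of all genes above the floor, and 4 had their lowest on the Hand Acu array, against 32.0%. Both held for Glul, Gjb6, Fgfr3 and S100b, 4 of 10 where 14.7% of all genes had that order. Brightness bears on these counts, since 6 members (Gfap, Aqp4, Glul, Slc1a3, Gja1 and S100b) lay in the brightest of 10 equal groups of genes, and 67.0% of the 924 genes of that group were higher on the TBI array than on the Sham array, and 62.2% were lower on the Hand Acu array than on the TBI array. Under quantile normalization, which gives every array the same distribution of signals, the former share was 51.9% and the median over all 10 members was 0.02 in place of 0.09 for TBI minus Sham. S100b then changed sign in both comparisons with TBI, and Slc1a3 and Gfap, each 0.01 apart, did so for Hand Acu minus Sham. Glul was then at 0.0016 for TBI minus Sham. The other probe set of Fgfr3 was lowest on the TBI array.

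**Figure D1:**
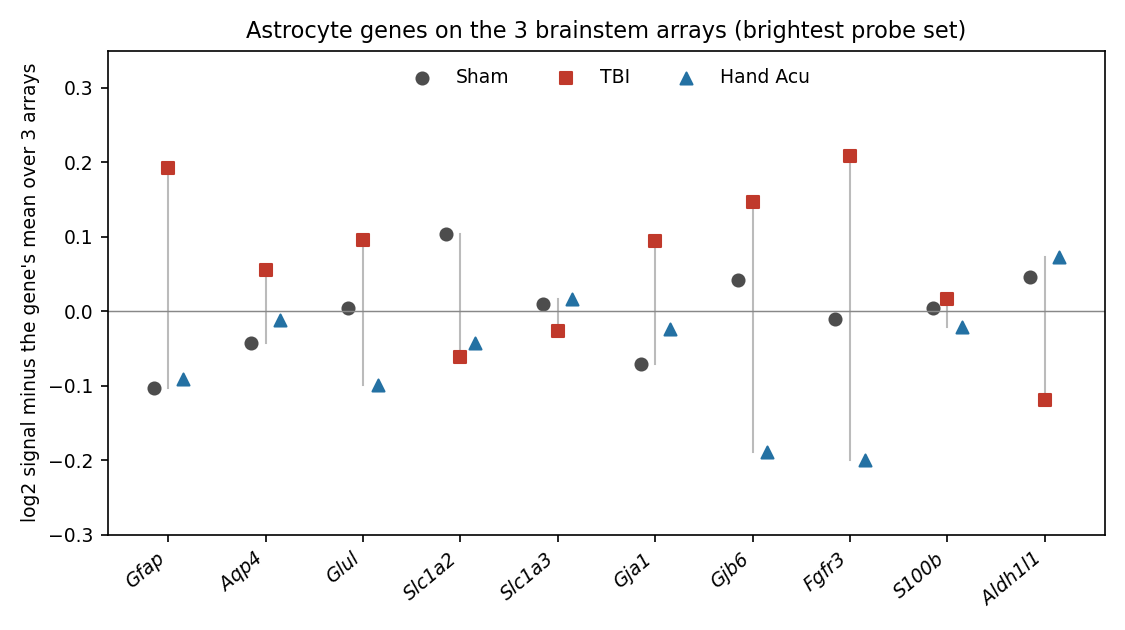
Log2 signal of each member's brightest probe set minus that gene's own mean over the 3 arrays, with 1 point for the Sham (circle), TBI (square) and Hand Acu (triangle) array and a line over their range. Gfap, Gjb6 and Fgfr3 spread most, by 0.30, 0.34 and 0.41, with the TBI square on top, while S100b and Slc1a3 spread by 0.04.

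Injury against sham asks what differs in these genes 1 h after TBI. Gfap was the member farthest apart, 1.23-fold higher on the TBI array, followed by Fgfr3 (1.16-fold) and Gja1 (1.12-fold). Aldh1l1 and Slc1a2 were lower by as much as Gja1 was higher, each 1.12-fold. Gja1 was at 0.05 under quantile normalization, and the other probe set of Fgfr3 was at −0.31. In all, 7 members were higher and 3 lower, with a median log2 difference of 0.09 where all genes had 0.0043 (6 higher and 4 lower under quantile normalization). Gfap was the only member at least 1.2-fold higher, a threshold passed by 7.68% of all genes, and none was 1.2-fold lower, against 8.15%. Under quantile normalization Gfap was at 0.26, just short of the threshold, and the count was 0. No member was 1.5-fold apart, against 1.55% of all genes in either direction. That 1 member of 10 is near the share of all genes, so the count is not a result about the members.

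Acupuncture against injury asks how the Hand Acu array differs from the TBI array. Fgfr3 was 1.33-fold lower on the Hand Acu array, Gjb6 1.26-fold lower and Gfap 1.22-fold lower, and Glul followed at 1.14-fold. In all, 7 members were lower and 3 higher, with a median log2 difference of −0.09 where all genes had −0.0024 (6 lower and 4 higher under quantile normalization). The 3 members at least 1.2-fold lower stand beside 6.49% of all genes, and 0 members were 1.2-fold higher, against 6.38%. None was 1.5-fold apart, against 1.21% of all genes. Under quantile normalization 2 members remained at least 1.2-fold lower, as Gfap then differed by −0.26, just short of the threshold, and the median was −0.03. The call of Fgfr3 rested on its brightest probe set: with the mean of its probe sets it was at −0.14, short of 1.2-fold, while Glul was at −0.33 by the same measure, so that the 3 genes past the threshold were then Gfap, Gjb6 and Glul.

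Acupuncture against sham gave the smallest spread among members, an SD over genes of 0.10 where the other comparisons had 0.15 and 0.19. All genes here had 0.21, but those of the brightest group, which holds 6 members, had 0.11. In all, 5 members were higher and 5 lower, with a median of −0.01 (3 higher and 7 lower under quantile normalization). No member was 1.2-fold apart in either direction, against 8.16% of all genes higher and 8.39% lower, and none was 1.5-fold apart, against 1.89%. In the brightest group 1.84% of genes were 1.2-fold higher and 1.30% lower. The lowest were Gjb6 at −0.23, Fgfr3 at −0.19, Slc1a2 at −0.15 and Glul at −0.10. The 3 comparisons share arrays, so a high value on the TBI array alone gives a positive difference in the first and a negative one in the second.

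**Figure D2:**
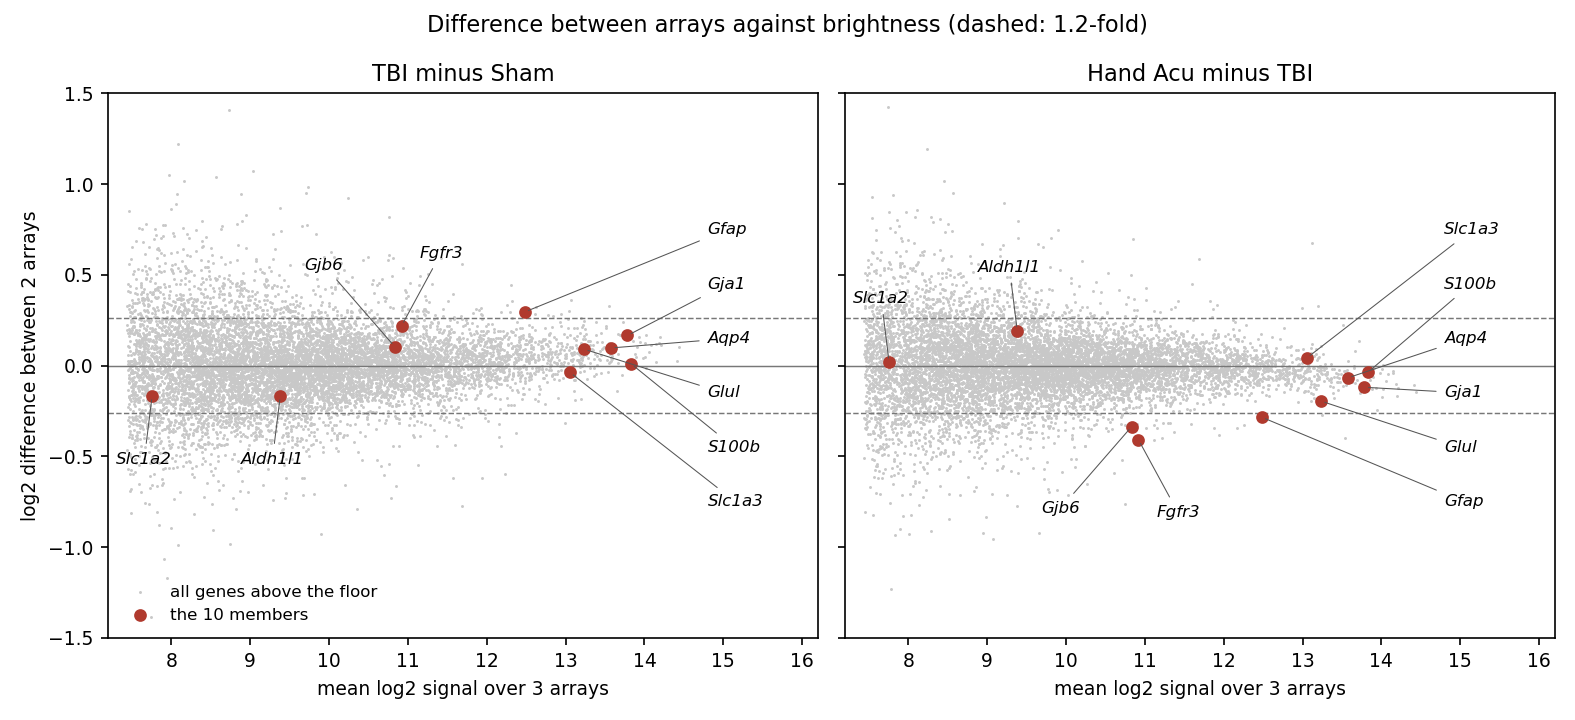
Log2 difference between 2 arrays (y) against mean log2 signal over the 3 arrays (x) for TBI minus Sham and Hand Acu minus TBI, with all 9241 genes above the floor in grey, the 10 members in red and dashed lines at 1.2-fold. The grey cloud narrows with brightness, and Gfap in the left panel and Gjb6, Fgfr3 and Gfap in the right panel lie beyond the dashed lines.

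Among the structural genes, Gfap had log2 signals of 12.38 (Sham), 12.67 (TBI) and 12.39 (Hand Acu) (probe set 1368353_at). The Sham and Hand Acu values lay 0.01 apart and the TBI value stood above both. The difference was 0.30 for TBI minus Sham and −0.28 for Hand Acu minus TBI. In the same group of brightness the SD over genes was 0.12 and 0.09 for these comparisons, 2.60% of genes were 1.2-fold higher in the first and 0.758% were 1.2-fold lower in the second. Gfap had only this probe set, so its pattern has no other reading on the arrays.

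Aqp4, the water channel of astrocyte endfeet, read 13.53, 13.63 and 13.56 on the Sham, TBI and Hand Acu arrays (1372190_at). Its range of 0.10 was under the SD of 0.12 of like genes for TBI minus Sham. Its 3 probe sets were all lower on the Hand Acu than on the TBI array, by differences from −0.10 to −0.07, whereas for TBI minus Sham 2 were higher and 1 lower.

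Glul, which encodes glutamine synthetase, read 13.24 (Sham), 13.33 (TBI) and 13.13 (Hand Acu) (1367632_at). Each of its 3 probe sets had the same order, with TBI highest and Hand Acu lowest. Hand Acu minus TBI was −0.19, −0.27 and −0.53 from the brightest to the dimmest of them, and TBI minus Sham was 0.09, 0.08 and 0.30. Glul was the only one of the 6 members with several probe sets above the floor in which all agreed in direction in all 3 comparisons. Under quantile normalization, however, its brightest probe set was at 0.0016 for TBI minus Sham and −0.15 for Hand Acu minus TBI. The SD of like genes for Hand Acu minus TBI was 0.09 at the brightness of the first.

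The glutamate transporter genes differed less, or less clearly. Slc1a3, which encodes the transporter known as GLAST, read 13.07, 13.03 and 13.07 on the Sham, TBI and Hand Acu arrays (1368565_at), a range of 0.04. Its further probe sets each differed in sign from the brightest in some comparisons: 1388064_a_at read 10.91, 10.85 and 10.44, and 1371130_at read 8.23, 8.55 and 8.54. So 1 reading of Slc1a3 gave −0.41 for Hand Acu minus TBI while the brightest gave 0.04. Slc1a2, which encodes the transporter known as GLT-1, read 7.86, 7.69 and 7.71 (1369693_a_at), close to the floor, where like genes had an SD of 0.29 for TBI minus Sham. Its other probe set read 7.59, 7.77 and 7.63, with the opposite sign in all 3 comparisons, so no direction can be given for Slc1a2.

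Of the connexin genes, Gjb6, which encodes the connexin Cx30, read 10.88 (Sham), 10.98 (TBI) and 10.64 (Hand Acu) in its only probe set, 1368577_at. The Hand Acu value stood below both others, with −0.34 for Hand Acu minus TBI and −0.23 for Hand Acu minus Sham, where like genes had SDs of 0.13 and 0.15 and 2.49% and 3.57% of them were 1.2-fold lower. Gja1, which encodes the connexin Cx43, read 13.71, 13.88 and 13.76 (1372002_at), highest on the TBI array. Its next probe set gave the same signs against TBI with larger sizes, 9.01, 9.30 and 8.91, or 0.29 for TBI minus Sham and −0.39 for Hand Acu minus TBI. The third lay below the floor at 4.87, 4.25 and 4.34 and was highest on the Sham array.

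Fgfr3, a receptor for fibroblast growth factors present on astrocytes and their precursors, had the widest range of the 10. It read 10.91 (Sham), 11.13 (TBI) and 10.72 (Hand Acu) in 1384056_at, so that no 2 arrays coincided. Hand Acu minus TBI was −0.41, where like genes had an SD of 0.11 and 1.84% were 1.2-fold lower. Its other probe set read 8.33, 8.02 and 8.14 and gave the opposite sign in both comparisons with TBI, but the same −0.19 for Hand Acu minus Sham. By distance between centred values over the 3 arrays, the genes most like the brightest probe set of Fgfr3 were Tafa4 (0.016), Fam98c (0.019) and Nat14 (0.021), and 155 of 9240 genes lay within 0.1.

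The last members gave small or isolated differences. S100b, which encodes a calcium-binding protein of astrocytes that is used as a blood marker of brain injury, read 13.83, 13.85 and 13.81 on the Sham, TBI and Hand Acu arrays (1386903_at). Its range of 0.04 was the smallest of the 10, and both differences with TBI changed sign under quantile normalization. Aldh1l1, an enzyme of folate metabolism that marks astrocytes widely, read 9.43, 9.26 and 9.45 (1368378_at). It was lowest on the TBI array, against the majority, with differences of −0.17 and 0.19 that were under or near the SDs of 0.20 and 0.18 of like genes.

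**Figure D3:**
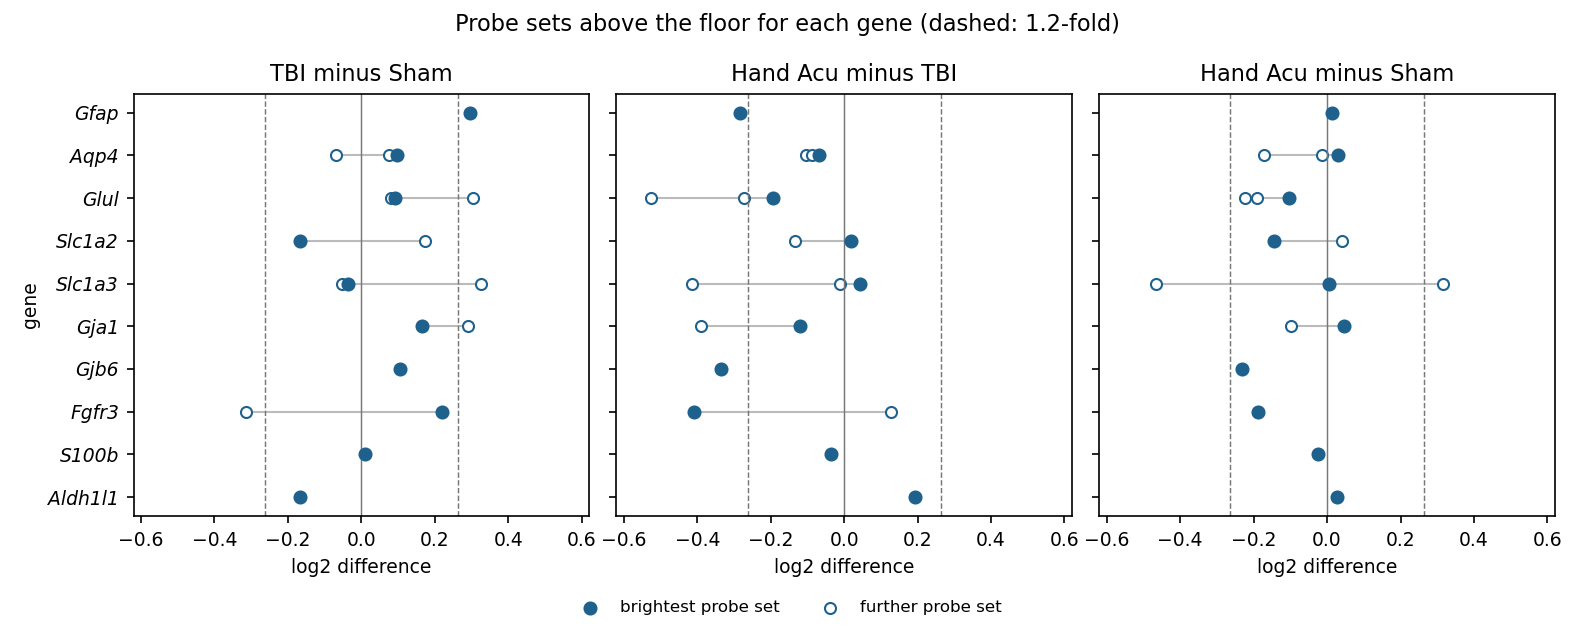
Log2 difference of each probe set above the floor (19 in all), by gene, for the 3 comparisons, with filled points for the brightest probe set of a gene, open points for further ones and dashed lines at 1.2-fold. The 3 Glul points lie on 1 side of 0 in every panel, whereas those of Fgfr3, Slc1a2 and Slc1a3 lie on both sides for Hand Acu minus TBI.

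Counted by probe set, 19 of the 20 named for members lay above the floor. For Hand Acu minus TBI 15 of these were lower and 4 higher, with a median of −0.12, where 51.0% of all 11925 named probe sets above the floor were lower. For TBI minus Sham 13 were higher and 6 lower, where 49.8% of all were higher. Probe sets of 1 gene share their RNA and arrays and are not replicates. These shares are not matched for brightness: in the brightest of the 10 groups 62.2% of genes were lower in the former and 67.0% higher in the latter. Of the 9 further probe sets, 5 had the sign of the brightest in each of these comparisons, where 56.6% and 53.5% of all further probe sets did.

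Genes that work beside the members were read from lists, to be set against the shares of all genes: 8.15% were 1.2-fold lower and 7.68% higher for TBI minus Sham, and 6.49% lower and 6.38% higher for Hand Acu minus TBI. Of 7 filament and endfoot genes above the floor, 2 were at least 1.2-fold lower on the TBI array, Synm at −0.29 and Plec at −0.27 (8.15% of all genes), which encode a filament protein and a filament linker. Synm read 9.11, 8.82 and 9.72 on the Sham, TBI and Hand Acu arrays, 0.90 higher on the Hand Acu than on the TBI array. Vim, the filament partner of Gfap, had differences of 0.05 and −0.17 for TBI minus Sham and Hand Acu minus TBI. Of 7 water and ion transport genes, Mlc1, which encodes a membrane protein of endfeet, was the only one 1.2-fold apart for TBI minus Sham, at 0.30, and none was for Hand Acu minus TBI.

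Of 11 genes of glutamate, glutamine and GABA handling, 7 were higher and 4 lower on the TBI than on the Sham array, with a median of 0.03. Under quantile normalization 5 were higher and 6 lower, with a median of −0.0084, so the list had no direction that held under both scalings. Slc38a2, a neutral amino acid transporter that carries glutamine, read 12.16, 12.35 and 12.01 and was the only one 1.2-fold lower for Hand Acu minus TBI, at −0.35. Aldh5a1, an enzyme of GABA breakdown, was highest on the Sham array in its brightest probe set, at 11.17 against 10.86 (TBI) and 10.63 (Hand Acu), though its other probe set above the floor had the opposite sign for both TBI minus Sham and Hand Acu minus Sham. Among 9 FGF signalling genes 7 were lower on the TBI array, against 49.0% of all genes, in which Fgf9 was lowest at −0.24, and none was 1.2-fold apart. Of 3 further gap junction genes, Gjb2, which encodes the connexin Cx26, differed most, at 0.20 for TBI minus Sham. Of 7 S100 genes 6 were higher on the TBI array, against 4715 of all 9241 genes, with S100a10 at 0.41, and S100a4 was 0.51 higher on the Hand Acu than on the TBI array. The 4 folate enzyme genes had medians of −0.04 and 0.07 in the same order, with Mthfd2, a mitochondrial enzyme, at −0.40 and 0.23. Mthfd2 read 7.35 on the TBI array, under the floor of 7.44, and genes of like brightness had SDs of 0.29 and 0.28.

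Other astrocyte markers gave a partly different picture. Of 20 above the floor, 10 were higher and 10 lower on the TBI than on the Sham array, with a median of 0.0001 that was −0.06 (7 higher and 13 lower) under quantile normalization. For Hand Acu minus TBI 15 were lower and 5 higher, with a median of −0.07 (13 lower and −0.05 under quantile normalization). Of all genes 50.7% were lower here, and 62.2% of those in the brightest of the 10 groups, which holds many of these markers. Cbs, an enzyme that makes cystathionine, read 8.47, 9.25 and 8.75 and was farthest apart in both, at 0.78 and −0.50. Slc14a1, a urea transporter, had 0.35 and −0.32, and Id3, a transcription regulator, had −0.51 for TBI minus Sham. Agt, the angiotensinogen gene, had −0.18 for Hand Acu minus TBI. Of the 20 markers 2 were 1.2-fold lower for Hand Acu minus TBI and none 1.2-fold higher, near the 6.49% and 6.38% of all genes, so these counts are not a result about the markers.

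Genes known to rise in reactive astrocytes went both ways. Of 17 measured, 8 lay below the floor, among them Lcn2, Serpina3n, Socs3 and Gbp2. Of the 9 above it, 4 were higher and 5 lower on the TBI array, with Emp1, a membrane protein gene, at 0.58, S1pr3, a sphingosine-1-phosphate receptor gene, at 0.37 and Stat3, a transcription factor gene of cytokine signalling, at −0.42. Timp1, a metalloproteinase inhibitor gene, had 0.37 for TBI minus Sham and −0.36 for Hand Acu minus TBI. S1pr3 read 7.28 on the Sham array, under the floor of 7.44. For TBI minus Sham 3 of the 9 were at least 1.2-fold higher and 2 lower, beside 7.68% and 8.15% of all genes. For Hand Acu minus TBI 1 was higher and 2 lower, beside 6.38% and 6.49%.

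**Figure D4:**
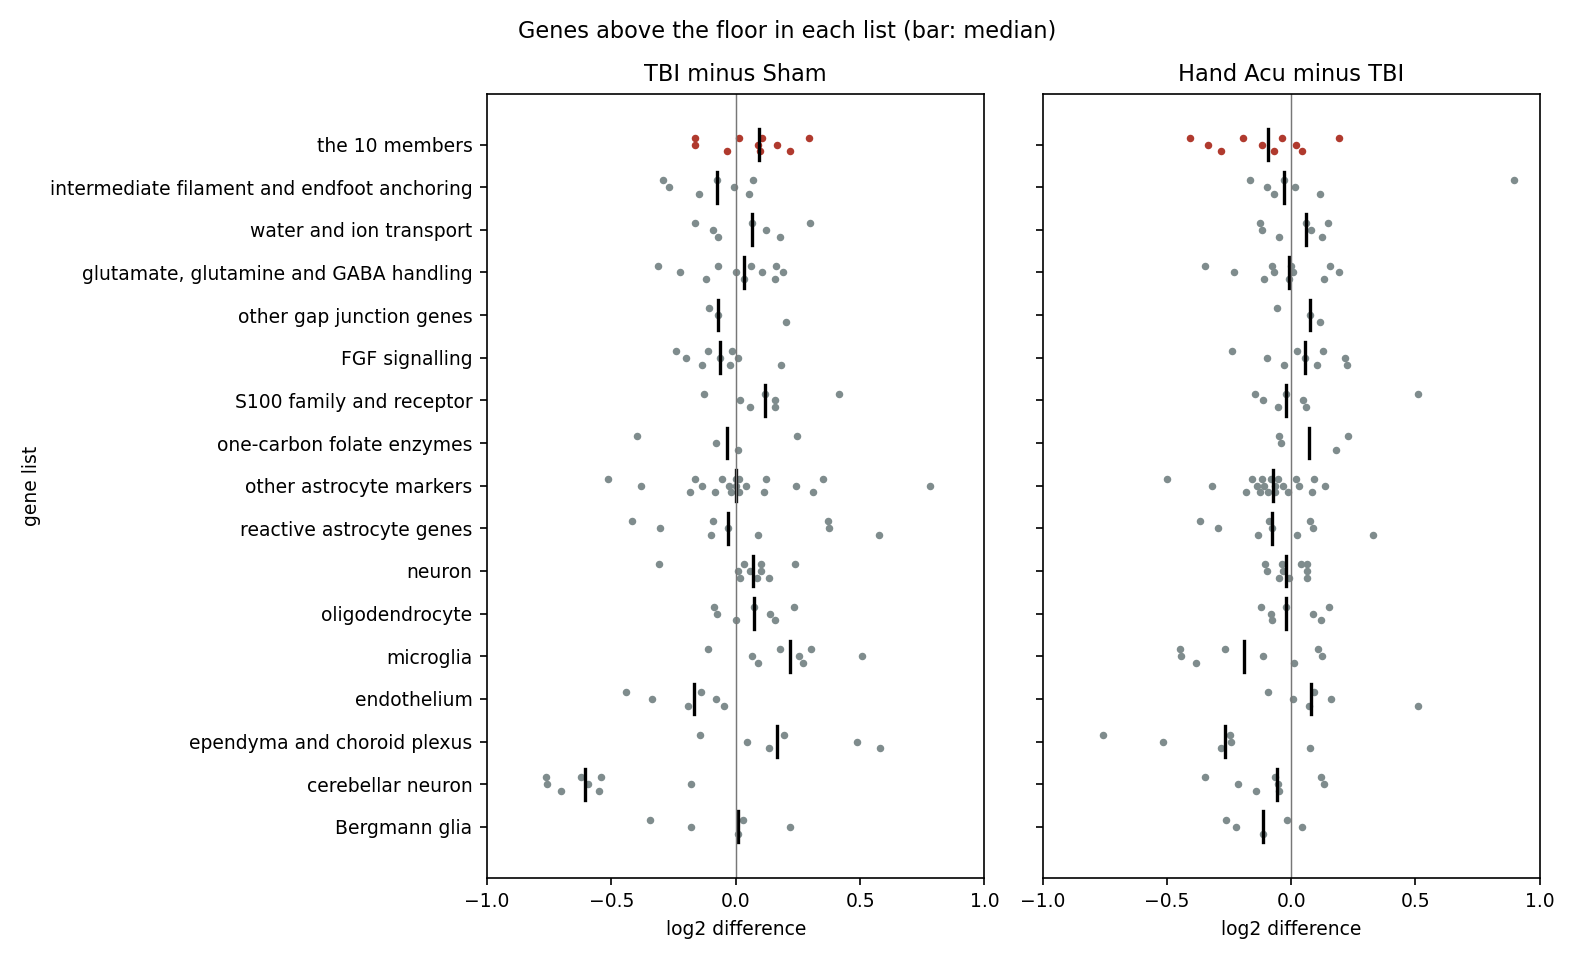
Log2 differences of single genes above the floor (points) and the median (bar) in each list, for TBI minus Sham and Hand Acu minus TBI, with the 10 members in red; the oligodendrocyte precursor list, with 1 gene above the floor, is left out. The members' medians of 0.09 and −0.09 lie within the spread of the other lists, and cerebellar neuron markers stand lowest in the left panel.

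The order of the members' summed signal, TBI highest and Hand Acu lowest, was seen in several lists, though not in every gene. Other astrocyte markers summed to 118156 (Sham), 120769 (TBI) and 114438 (Hand Acu). Water and ion transport genes and genes of glutamate, glutamine and GABA handling had this order too. So did ependyma and choroid plexus markers, and microglia markers, whose Sham and Hand Acu sums were all but equal. The summed signal of the 10 members was 68141 (Sham), 72704 (TBI) and 67471 (Hand Acu). That of 8 of 10 microglia markers above the floor was 4543, 5240 and 4543, with medians of 0.22 for TBI minus Sham and −0.19 for Hand Acu minus TBI. In the former 7 were higher and 1 lower, and in the latter 5 were lower and 3 higher, where 49.0% and 50.7% of all genes were lower. P2ry12 was farthest apart in both, at 0.51 and −0.45, but its other probe set above the floor had the opposite sign in both. That of 6 ependyma and choroid plexus markers was 18145, 19996 and 16710, with medians of 0.16 and −0.26. Ttr, by far the brightest at 13.93, 14.07 and 13.82, weighed most in this sum. It had TBI highest and Hand Acu lowest, as did Sostdc1 and Prlr. The others differed: Foxj1 read 7.82, 8.31 and 8.39, Dynlrb2 8.76, 9.34 and 9.10, and Folr1 8.70, 8.56 and 8.27. Cx3cr1 and Itgam of the microglia list and Kl of the choroid plexus list lay below the floor. Endothelial markers, of which 6 were above the floor and Tie1 below it, went the other way, with summed signals of 5952, 5068 and 5168.

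Cerebellar neuron markers, 8 of 9 measured above the floor, summed to 23406 (Sham), 16511 (TBI) and 16155 (Hand Acu). Of these 8 all were lower on the TBI array, with a median of −0.61. Of 5 Bergmann glia markers above the floor, cerebellar astrocytes that carry much Slc1a3, 3 were higher and 2 lower on the TBI array (2 higher and 3 lower under quantile normalization). Their summed signal was 7320, 7703 and 7460, in which Ptprz1 weighed most, as the brightest at 11.73, 11.95 and 11.94. For TBI minus Sham Ptprz1 was at 0.22, A2m at 0.03, Hopx at 0.01, Timp4 at −0.18 and Gdf10 at −0.34. The median of the 5 for Hand Acu minus Sham was −0.19. Neuron markers, all 10 above the floor, had medians of 0.07 and −0.02, and the 7 measured oligodendrocyte markers of 0.07 and −0.02. Under quantile normalization the neuron medians were 0.0076 and 0.02, with 5 higher and 5 lower in place of 9 and 1 for TBI minus Sham, and the oligodendrocyte medians were −0.02 and 0.0098. The ratio of 3' to 5' signal for beta-actin, a sign of RNA integrity, was 5.58, 6.37 and 6.69 on the Sham, TBI and Hand Acu arrays. The same ratio for Gapdh was 1.250, 1.203 and 1.280, lowest on the TBI array, and so did not follow the order of beta-actin. The median signal was between 174.1 and 174.7. The part of these cell types and of RNA integrity in the members' differences was not tested.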

How the data were processed

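Rat brainstem RNA (6 µg for each labelling) was hybridised to 1 Affymetrix array for each of 3 groups. The submitters' processing notes name MAS5; its version is not given in the sources used here. The authors deposited log2 signals. Neither the log base nor the scaling is stated, and both were inferred: on the linear scale the mean after trimming 2% at each end was 500.0 on every array. Detection calls were not used here.

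Of 31099 probe sets 57 were controls. Of the others, 20826 had 1 gene symbol in the platform annotation of 2016, 436 had several and 9780 had none and were left unnamed. Different probe sets of a gene were not averaged: the brightest stood for the gene. Level was not compared between genes as an amount of RNA, since probe sets bind with different strength. Summed signals of a list were compared only between arrays, and its brightest probe sets weigh most in them. Differences of log2 values were taken as deposited, with no pseudocount. Each gene above the floor was placed in 1 of 10 equal groups by mean signal for the scatter of like genes. Named genes were the 10 members, the 3 of each list farthest apart for TBI minus Sham and for Hand Acu minus TBI (not all are printed), the 3 most like the widest ranging member, and others chosen after their values were seen (markers of other cell types and list genes below the floor). The members and lists were chosen with earlier results of these data known. Alternatives were quantile normalization, median centring, an offset of 50, means of probe sets, other floors and leaving out each member. Counting was tested on simulated data. Python 3.11.15, numpy 2.4.6, pandas 2.3.3 and matplotlib 3.10.9 were used.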

Additional observations from a re-analysis of the deposited data

How the results depend on the processing

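The alternatives turned no difference of 1.2-fold or more in sign. Quantile normalization moved the members' median from 0.09 to 0.0203 for TBI minus Sham and from −0.09 to −0.0266 for Hand Acu minus TBI, and left 0 members at least 1.2-fold higher in the former. Gfap was then at 0.26, just under the threshold. Averaging every probe set of a gene gave 0.0229 for the TBI minus Sham median, and averaging those above the floor 0.0567, while either gave −0.13 for Hand Acu minus TBI. Under both averages Fgfr3 lost its 1.2-fold difference for Hand Acu minus TBI (−0.14) and Glul gained one (−0.33). Over the 30 differences of single members and 5 alternatives, 139 of 150 values moved by less than the SD of like genes and 11 by more, and 21 changed sign, among differences all under 1.2-fold; those of Aqp4, Slc1a2, Slc1a3, Gja1 and Fgfr3 did so with means of probe sets. Median centring, the offset, the other floors and leaving out each member kept the medians of TBI minus Sham between 0.0911 and 0.0996 and of Hand Acu minus TBI between −0.12 and −0.07. Leaving out an array was not possible, since each group has 1. Signal near background limits Slc1a2, and the absence of replicates limits every value.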
